A study of Oryza sativa Indica Group with 5 samples.

Results

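The 38 loci described here are the rice genes whose array probe gave a clear signal in developing seed of all 3 high-amylose accessions and in neither of the 2 waxy accessions. They were chosen by that pattern from the 48718 array loci that carry an MSU (LOC_Os) name, so they make up 0.0780% of the loci. Where several probes target a locus, the one brightest on average (mean log2 signal) was used, and a probe counted as detected where the scanner software flagged it as well above background. Seed (Oryza sativa, Indica group) was taken 16 days after flowering from untreated plants in a phytotron glasshouse (29 °C days, 21 °C nights), and each accession was hybridised to 1 single-colour Agilent array. The high-amylose accessions (n = 3) carry haplotype 8, and the waxy accessions (n = 2) carry haplotype 4. Haplotype and grain type therefore go together, and each array is another accession, so a group difference also holds whatever else differs between these accessions.

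Amylose is the linear fraction of grain starch, and waxy grain holds little or none of it because the granule-bound starch synthase encoded by Waxy is missing or inactive. A transcript that is seen in some accessions and not in others can differ in its level, in the cells present at harvest, or in how well the probe matches that accession's sequence. In RNA of whole seed, fewer cells of a type and less RNA per cell cannot be told apart. The best known of the 38 loci is DFR (Rd, LOC_Os01g44260), dihydroflavonol 4-reductase, an enzyme of anthocyanin and proanthocyanidin synthesis that is needed for red pericarp. The other loci are given by locus name, because the files hold no gene descriptions. No sequence is shown, since neither the files nor the gene table used here holds any.

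The tissue label was borne out by the markers. All 6 starchy endosperm markers and all 5 embryo and aleurone markers were detected on every array. Arrays differed in brightness, with a 75th percentile of processed signal of 183, 108 and 88.8 for high-amylose replicates 1, 2 and 3, against 203 and 212 on waxy replicates 1 and 2. High-amylose replicates 2 and 3 shared a scan date and were dimmer than the other 3 arrays, and both waxy arrays shared a date of their own. Scan date and group therefore cannot be told apart. Waxy itself (LOC_Os06g04200) had log2 signals of 7.96, 8.46 and 8.32 relative to the 75th percentile on the high-amylose arrays, against 8.21 on waxy replicate 1 and 3.70 on waxy replicate 2. The waxy arrays thus stood far apart at that locus, and the number of members, their median difference and their limma calls were also obtained without each.

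Detection depended on a fixed signal on each array. Every spot whose background-subtracted signal reached 17.5, 17.04 and 14.4 on high-amylose replicates 1, 2 and 3 was flagged, and so was every spot that reached 18.8 and 17.8 on waxy replicates 1 and 2. These values are called the detection line below. On this rule 22717 loci were detected on all 3 high-amylose arrays, and 26703 on both waxy arrays. Of the 22717 loci, 22494 were also detected on both waxy arrays, 185 on 1 of them and 38 on neither. Seen from the other side, 18491 loci were detected on no waxy array. Of these, 16770 were detected on no array at all, 1438 on 1 high-amylose array, 245 on 2 and 38 on all 3. The single detections lay mostly on the brightest high-amylose array, with 755 loci on replicate 1, 328 on replicate 2 and 355 on replicate 3. The opposite pattern, detection on both waxy arrays and on no high-amylose array, was met by 338 loci, 8.89 times as many. That pattern asks for 2 detections on the brighter arrays, whereas membership asks for 3 detections, of which 2 are on the dimmer arrays, so the counts are not on the same footing.

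Most of the 38 loci were weak. On high-amylose replicates 1, 2 and 3 their median background-subtracted signal was 1.51, 1.57 and 1.63 times the detection line, against 0.766 and 0.731 times the line on waxy replicates 1 and 2. By the scanner's more lenient flag of a positive and significant signal, only 3 of the 38 kept the pattern. On every high-amylose array 18 of the 38 loci stayed under 2 times the line, and 5 exceeded 5 times the line on at least 1 array. Among the 22717 loci detected on all high-amylose arrays, ranked by mean log2 signal, 28 of the 38 lay in the lowest 10%, and only DFR lay in the upper 50%. The loci with the opposite pattern were weak too. Of these 65.4% stayed under 2 times the line on both waxy arrays, and 8.58% exceeded 5 times the line on at least 1, against 47.4% and 13.2% of the loci described here on the high-amylose arrays.

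**Figure D1:**
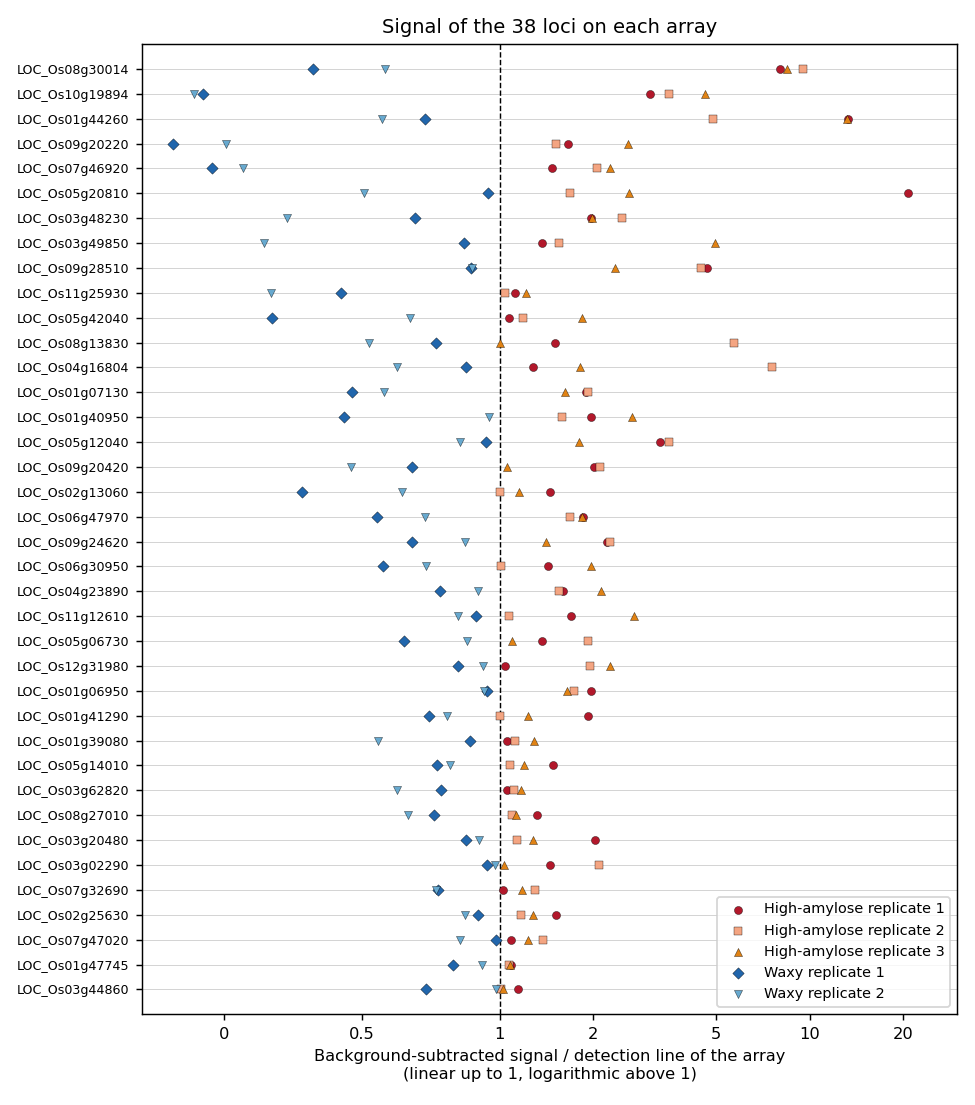
Background-subtracted signal of the 38 loci divided by the detection line of the array, on an axis that is linear up to 1 and logarithmic above 1. Each row is a locus, ordered by its log2 difference, each symbol is 1 array, and the dashed line at 1 is the detection line. A few loci at the top stand clear of the line on both sides, while the lower rows crowd around it.

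DFR was the brightest of the 38 by mean log2 signal. Its processed signal read 242, 86.3 and 214 on the high-amylose arrays, against 14.9 and 11.1 on the waxy arrays. All 3 high-amylose values lay far above both waxy values, and the locus ranked 11248th of 22717. On waxy replicates 1 and 2 its background-subtracted signal was 0.73 and 0.57 times the line, so under the line but above 0. Relative to each array's 75th percentile the log2 difference, high-amylose minus waxy, was 4.46 (SE 0.53), and with the waxy arrays set to their lowest flagged signal the locus was at least 17.5-fold higher. Bounds of this kind are given for loci that are well above background on all 3 high-amylose arrays and on no waxy array. They average the high-amylose arrays and hold only on the scaled axis, where scaling adds 0.78 to every log2 difference. Without scaling the measured log2 difference of DFR was 3.68, under the 4.13 of its bound.

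LOC_Os08g30014 on chromosome 8 had the largest difference. Its processed signal came to 139, 164 and 117 on the high-amylose arrays, against 6.04 and 10.8 on the waxy arrays. Background-subtracted, the signal on waxy replicates 1 and 2 was 0.32 and 0.58 times the line, so also above 0. The high-amylose accessions ranged from -0.40 to 0.61 on the scaled log2 axis. The locus was at least 14.7-fold higher, with a log2 difference of 4.88 (SE 0.48).

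LOC_Os10g19894 on chromosome 10 was dimmer but as clearly split. Its processed signal came to 57.1, 63.4 and 70.8 on the high-amylose arrays, against 4.14 and 3.70 on the waxy arrays, where the background-subtracted signal was below 0. The log2 difference was 4.80 (SE 0.49), or at least 6.75-fold, a bound set by the dimness of the locus rather than by its waxy values.

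These 3 loci were the only ones of the 38 that passed in limma over all 28914 loci tested (Benjamini-Hochberg adjusted p under 0.05), and 0.0104% of those loci passed in this direction. Because the 38 were chosen by this contrast, the count describes them and supports nothing. Without high-amylose replicate 3 none of the 38 passed, and without replicate 2 the same 3 passed. Without replicate 1 LOC_Os08g30014, LOC_Os10g19894 and LOC_Os07g46920 passed while DFR did not (limma adjusted p = 0.086). In these fits, in the order named, 0, 6 and 4 loci of the whole array passed in this direction. Without waxy replicate 1 or 2, 9 and 8 of the 38 passed. Over the whole array 65 and 86 loci passed in this direction without those arrays, against 3 with all arrays. DFR had an adjusted p of 0.041 in limma with all arrays, and missed the threshold with scan date as a random block (0.117), with every probe tested apart (0.055) and with no filter (0.091). Under quantile scaling, normexp, the deposited log2 values or a term for the scan date of the 2 dimmer arrays, limma called 0 of the 38. Each of these fits also called 0 loci of the whole array in this direction. The scan date term takes up high-amylose replicates 2 and 3, so its group difference is that of replicate 1 alone against the waxy arrays. At an unadjusted p under 0.05 the main setting called 35 of the 38, where 1.63% of all loci tested passed in this direction.

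A second tier of loci was dim on the high-amylose arrays but near or well below the line on the waxy arrays. LOC_Os07g46920 had a processed signal of 27.0, 34.4 and 31.4 on the high-amylose arrays, against 3.87 and 3.69 on the waxy arrays. LOC_Os09g20220 had 26.6, 23.7 and 35.2 on the high-amylose arrays, against 3.39 and 3.26 on the waxy arrays. Both were near background in waxy seed, and their log2 differences were 3.81 (SE 0.49) and 3.86 (SE 0.50), which the dim signal limits to at least 3.27-fold and 2.99-fold. LOC_Os03g48230 had 38.1, 44.2 and 33.2 on the high-amylose arrays, against 14.8 and 4.63 on the waxy arrays, a log2 difference of 2.99 (SE 0.58) and at least 4.06-fold. Here 1 waxy array lay much nearer to the line than the other. LOC_Os11g25930 showed the same split at the very bottom of the range, with 20.01, 19.1 and 18.0 on the high-amylose arrays, against 8.22 and 3.53 on the waxy arrays (log2 difference 2.60, SE 0.52, at least 2.02-fold). LOC_Os09g28510 was brighter, with 76.4, 73.2 and 32.8 on the high-amylose arrays, against 16.3 and 14.9 on the waxy arrays, and its waxy values came to 0.89 and 0.90 times the line (log2 difference 2.65, SE 0.44, at least 6.03-fold).

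In other loci a single accession carried most of the signal. LOC_Os05g20810 had the brightest spot of all 38, at 358 on high-amylose replicate 1, but 30.4 and 40.1 on replicates 2 and 3, against 18.8 and 9.41 on the waxy arrays. Its log2 difference of 3.29 had an SE of 0.76, the bound was 7.55-fold, and waxy replicate 1 reached 0.96 times the line. LOC_Os03g49850 was highest on replicate 3, with 23.6, 25.8 and 73.1 on the high-amylose arrays, against 17.1 and 3.46 on the waxy arrays (log2 difference 2.99, SE 0.86, at least 3.71-fold). That difference was 4.17 without waxy replicate 1 and 1.80 without waxy replicate 2. LOC_Os08g13830 was highest on replicate 2, with 27.9, 109 and 16.1 on the high-amylose arrays, against 14.7 and 9.75 on the waxy arrays (2.39, SE 0.76, at least 3.88-fold). So was LOC_Os04g16804, with 21.8, 121 and 24.5 on the high-amylose arrays, against 15.9 and 10.9 on the waxy arrays (2.39, SE 0.80, at least 4.26-fold). Across the 38 loci the highest and lowest high-amylose arrays differed 2.04-fold in the median on the scaled axis, and at 4 loci by over 4-fold.

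**Figure D2:**
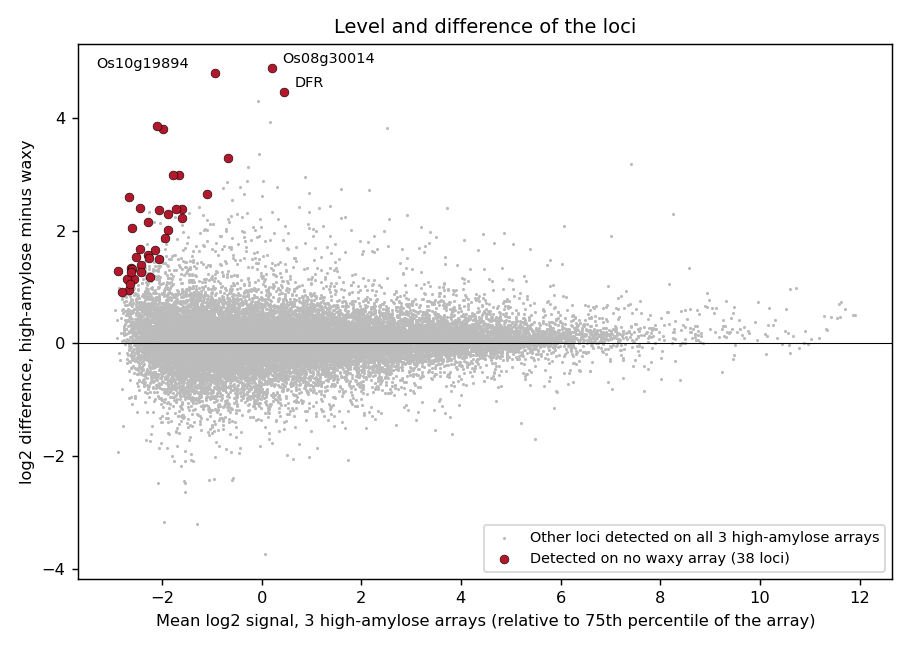
Log2 difference, high-amylose minus waxy, against the mean log2 signal of the 3 high-amylose arrays relative to each array's 75th percentile. Grey points are the other loci detected on all 3 high-amylose arrays and red points the 38 loci, which crowd at the dim end with DFR, LOC_Os08g30014 and LOC_Os10g19894 above them.

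The size of the differences depended on the scaling of dim arrays. Relative to the 75th percentile, the median log2 difference of the 38 loci was 1.94, or 3.84-fold, against a median of 0.03 over all loci tested. All 38 had groups that did not overlap, as did 8.51% of the loci tested in this direction, and 19 reached a measured 4-fold, as did 0.512%. The rule used this contrast, so these shares are given only beside each other. Scaling by the 75th percentile adds 0.78 to every log2 difference, because the high-amylose arrays were dimmer on average. In processed signal as deposited, with no scaling, the median of the 38 loci was 1.16, or 2.24-fold, against -0.74 over all loci tested, and 8 of the 38 reached 4-fold. On that scale the groups overlapped at 4 loci, LOC_Os03g44860, LOC_Os03g02290, LOC_Os07g47020 and LOC_Os01g47745. With high-amylose replicate 1 alone, the array nearest to the waxy arrays in brightness, the scaled median was 1.40.

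The scanner software gives an error for each processed signal, a technical measure that leaves out the spread between accessions. The members were chosen for lying on either side of the line, so the gaps describe them only, in unscaled signal. At 17 of the 38 loci the gap between the lowest high-amylose and the highest waxy processed signal exceeded the combined error of those 2 spots, and at 9 it exceeded 2 times that error. These 9 were LOC_Os08g30014, DFR, LOC_Os10g19894, LOC_Os09g20220, LOC_Os07g46920, LOC_Os03g48230, LOC_Os09g28510, LOC_Os01g07130 and LOC_Os06g47970. LOC_Os08g30014 had the widest gap, 106 units or 8.42 times its error, followed by DFR at 6.93 times and LOC_Os10g19894 at 6.63 times.

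The members nearest to the line show how fine the split was. LOC_Os02g13060 was included with 1.00 times the line on high-amylose replicate 2, where its processed signal was 17.2, against 5.48 and 12.3 on the waxy arrays. LOC_Os01g41290 was included with 1.00 times the line on the same array, and LOC_Os08g13830 with 1.01 times the line on replicate 3. On the waxy side LOC_Os03g44860 and LOC_Os07g47020 each reached 0.99 times the line on 1 waxy array, and LOC_Os03g02290 reached 0.98. The processed signal of LOC_Os03g44860 was 19.1, 18.5 and 14.8 on the high-amylose arrays, against 13.5 and 18.4 on the waxy arrays, so the groups overlapped before scaling.

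Just outside the rule lay 430 loci that missed it by 1 array, 245 of them by a high-amylose array and 185 by a waxy array. LOC_Os03g16050 came closest, at 0.997 times the line on high-amylose replicate 1. Its processed signal read 16.7, 68.0 and 178 on the high-amylose arrays, against 14.7 and 11.7 on the waxy arrays. LOC_Os05g41680 missed at 0.991 times the line on replicate 3 and LOC_Os03g54160 at 0.988 times on replicate 1. Without high-amylose replicate 1, 2 or 3 in the rule the count was 141, 102 and 116, and without waxy replicate 1 or 2 it was 104 and 157.

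A second probe was present for 7 of the 38 loci, and none of these 7 second probes had the detection pattern of the first. At 4 loci the second probe was detected on no array. At LOC_Os01g39080 and LOC_Os06g30950 it was detected on 1 high-amylose and 1 waxy array each, and the second probe of LOC_Os01g39080 was brightest on waxy replicate 1, at 42.1. The first probe was by rule the brighter one, so second probes are dimmer by choice.

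DFR was the locus where the second probe carried clear signal. It read 4.22, 86.0 and 211 on the high-amylose arrays, against 11.1 and 5.02 on the waxy arrays. Both probes were brighter on high-amylose replicate 3 than on replicate 2. On replicate 1 the first probe read 242, its highest value, and the second was not detected. Detection by the probes thus differed on high-amylose replicate 1 and on no other array. By the second probe the log2 difference was 3.28, with replicate 1 below both waxy arrays before scaling. No bound is given for this probe, because replicate 1 was not detected by it.

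**Figure D3:**
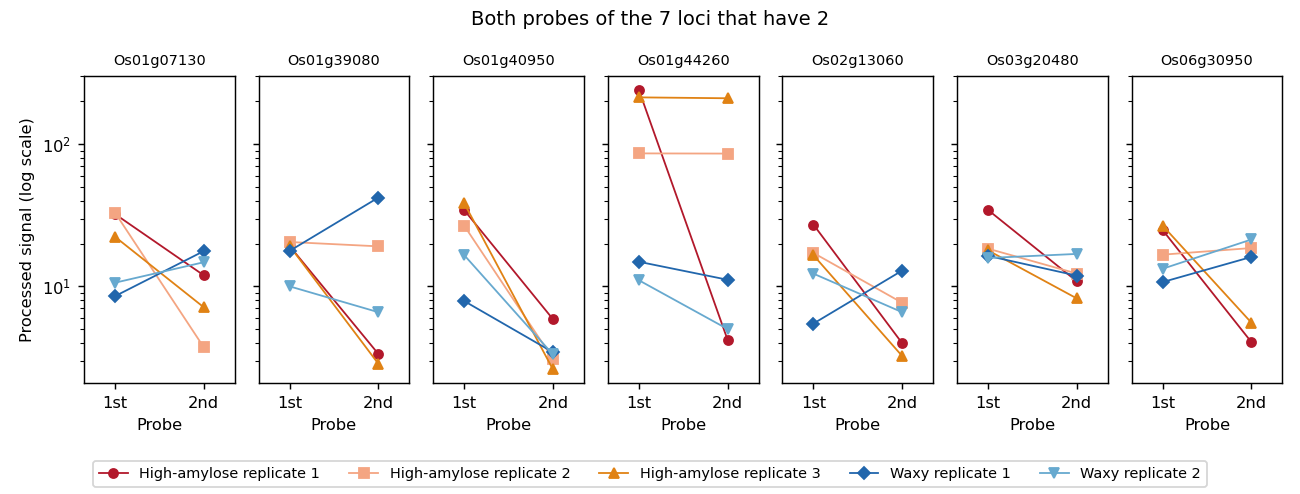
Processed signal, on a logarithmic axis, of the first and second probe of each of the 7 loci that have 2, with 1 line per array. At Os01g44260 (DFR) high-amylose replicate 1 reads 242 by the first probe and 4.22 by the second, while replicates 2 and 3 are detected by both. Levels are not comparable between probes.

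DFR was also the one member among 106 loci of a list of known rice genes that were on the array, which covers starch and sugar supply, endosperm, embryo and green-tissue markers, grain traits, flowering, resistance and ion transport. The list was written by hand with earlier results of these data known, so the place of DFR on it supports nothing. Of all loci 0.0780% were members. No starch gene was a member, but 31 of the 37 starch and sugar loci were detected on all 5 arrays, which excludes membership. Of the 6 pericarp pigment and phenol genes on that list, 5 were tested, all with a difference above 0. Over all loci tested 53.9% were above 0. Only DFR passed in limma, and as a member it was chosen by this contrast. Rc (LOC_Os07g11020), the regulator of red pericarp, missed membership through high-amylose replicate 1, with scaled log2 signals of -5.73, -2.37 and -0.12 on the high-amylose arrays, against -5.16 and -5.42 on the waxy arrays. Chalcone synthase, CHS (LOC_Os11g32650), the first enzyme of flavonoid synthesis, was detected on all 5 arrays at -1.46, 1.00 and 3.74 on the high-amylose arrays, against -0.98 and -0.82 on the waxy arrays. Replicate 1 was thus low for Rc and CHS and high for the first probe of DFR. The other tested genes of this kind, ANS (LOC_Os01g27490) and Phr1 (LOC_Os04g53300), had log2 differences of 0.45 and 0.77. At Rc, CHS, ANS and Phr1 the scaled groups overlapped, and OsC1 (LOC_Os06g10350) was detected on no array.

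Markers of the green outer layers also differed between arrays. The median scaled log2 signal of 11 photosynthesis loci was -3.62, -1.09 and -0.31 on high-amylose replicates 1, 2 and 3, against -3.55 and -3.06 on the waxy arrays, and 10 of the 10 tested had a difference above 0, where 53.9% of all loci tested did. Their median log2 difference was 1.97, but limma called 0 of them, with 2 of 10 at an unadjusted p under 0.05. The median of the 38 loci was -2.79, -2.04 and -1.95 on the high-amylose arrays, against -3.79 and -3.98 on the waxy arrays. After scaling, 1 of the 38 was brightest on replicate 1, 15 on replicate 2 and 22 on replicate 3, and before scaling these counts were 14, 16 and 8. None of the 11 photosynthesis loci was a member. The part of green tissue or of array brightness in the signal of the 38 loci was not tested.

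The 38 loci were spread over all 12 chromosomes. Chromosome 1 held 7 of them, or 18.4%, where it held 12.2% of the loci on the array. Chromosome 3 held 6 (15.8%, against 10.6% of loci), chromosome 5 held 5 (13.2%, against 8.04%) and chromosome 9 held 4 (10.5%, against 5.98%). Chromosomes 10 and 12 held 1 each. Relative to its loci, chromosome 9 held the most members and chromosome 12 the fewest, and with so few members the shares are a description. Chromosome 6, which carries Waxy, held LOC_Os06g30950 and LOC_Os06g47970, which lie 2090 and 3477 array loci from Waxy, and no member lay within 100 array loci of it.

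No members were neighbours. The closest pair, LOC_Os07g46920 and LOC_Os07g47020, lay 10 array loci apart. LOC_Os01g06950 and LOC_Os01g07130 lay 18 apart, as did LOC_Os09g20220 and LOC_Os09g20420, and LOC_Os01g40950 and LOC_Os01g41290 lay 31 apart. All other successive members of a chromosome were at least 136 array loci from each other, with a median of 374 over the 26 pairs. Among the 338 loci with the opposite pattern, 11 (3.25%) stood in runs of adjacent loci, the longest of 3, but that list is larger and so denser along the chromosomes.

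**Figure D4:**
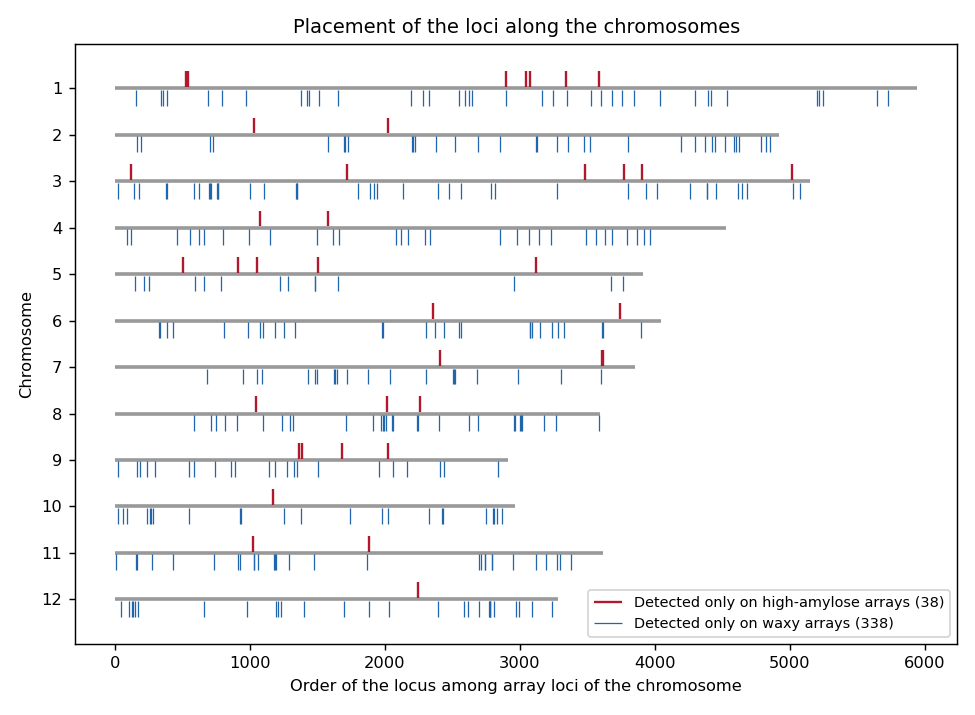
Placement of the 38 loci detected only on high-amylose arrays (red, above each bar) and the 338 detected only on waxy arrays (blue, below) along the 12 chromosomes, by the order of array loci. No red marks are adjacent, and the 4 closest red pairs lie 10 to 31 array loci apart.

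The loci around the members were compared with all loci tested. Of the 379 distinct loci within 5 array loci on either side, 247 were tested and 138 of these (55.9%) had a difference above 0, against 53.9% of all loci tested. Their median log2 difference was 0.04, and groups did not overlap upward at 22 of them (8.91%, against 8.51% of all loci tested). A measured 2-fold was reached by 10 (4.05%, against 3.04%). Among the loci directly next to a member, 51 were tested and 36 of these (70.6%) had a difference above 0, with a median of 0.16, against 0.03 over all loci tested. At DFR, the nearest loci on either side, LOC_Os01g44250 and LOC_Os01g44270, were at 0.21 and 0.03. The fourth locus before DFR, LOC_Os01g44220, is AGPL2, the large subunit of the endosperm ADP-glucose pyrophosphorylase, and was at -0.32 with strong signal on all arrays.

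A measured 4-fold was reached by 5 of the 247 tested loci around the members, against 0.512% of all loci tested. These 5 were picked out after their values were seen. LOC_Os03g44890, the third locus after LOC_Os03g44860, had a processed signal of 223, 207 and 661 on the high-amylose arrays, against 128 and 75.9 on the waxy arrays, a log2 difference of 2.44. LOC_Os01g40880, the fifth locus before LOC_Os01g40950, had 47.9, 41.2 and 79.8 on the high-amylose arrays, against 21.7 and 24.3 on the waxy arrays, a log2 difference of 2.01. At both the groups did not overlap before scaling. LOC_Os10g19912, the fifth locus after LOC_Os10g19894, had a processed signal of 275, 48.1 and 76.8 on the high-amylose arrays, against 12.3 and 31.6 on the waxy arrays, a log2 difference of 3.13. Its groups did not overlap before scaling either. The locus just before LOC_Os10g19894, LOC_Os10g19892, was at 2.05, with 97.1, 12.6 and 56.9 on the high-amylose arrays, against 22.7 and 12.7 on the waxy arrays, so its groups overlapped before scaling. Between LOC_Os10g19894 and LOC_Os10g19912 lay 3 loci detected on no array and LOC_Os10g19910 at -0.31. On chromosome 7, LOC_Os07g46870, the second locus before LOC_Os07g46920, had 41.0, 68.8 and 5.67 on the high-amylose arrays, against 6.27 and 3.49 on the waxy arrays, a log2 difference of 3.21. No bound is given, because the locus was not detected on high-amylose replicate 3. Its lowest high-amylose value lay under the higher waxy value before scaling.

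**Figure D5:**
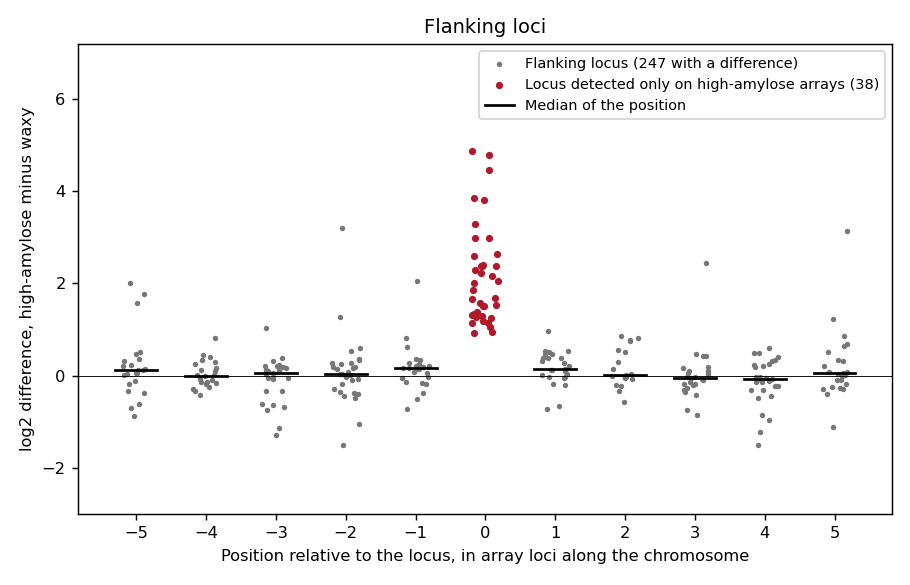
Log2 difference, high-amylose minus waxy, of the 38 loci (red, position 0) and of the tested loci up to 5 array loci before and after them (grey), with the median of each position as a black bar. The medians beside the loci lie near 0, and single grey points above 3 are LOC_Os07g46870 at position -2 and LOC_Os10g19912 at position 5.

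The probes of the 38 loci were much like those of the array. Names of the class JUNQ made up 84.2% of the 38, against 80.9% of all loci, JMULT 10.5% against 14.5%, and JXHYB 5.26% against 4.56%, classes that the sources used here do not define. A single probe stood for 31 of the 38 loci (81.6%, against 79.6% of all loci), and all but 1 of the 38 probes were printed in a single spot, so no repeat spot was at hand for them. Locus numbers that do not end in 0 belonged to 4 of the 38 (10.5%, against 6.13% of all loci), among them LOC_Os08g30014 and LOC_Os10g19894.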

How the data were processed

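Developing seed was measured on 5 arrays, 3 high-amylose and 2 waxy. The authors deposited intensity per spot from Agilent Feature Extraction 11.5.1.1 (per the file headers), background-subtracted and not normalized between arrays, with flags of 0 or 1 for detection. A log2 table that the authors deposited, with limma named in the submitters' processing notes, was an alternative. The high-amylose columns of that table had medians of -0.017, 0.040 and 0.027, and the waxy columns -0.023 and 0.0041. Deviations from each probe's mean correlated with those of the scanner values at 0.956 to 0.987 across probes. A correlation shows direction but cannot settle scale, and the centring is unknown.

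Control spots were left out and outlier spots dropped where a probe had others. A probe counted as detected on an array if all its spots were flagged. Each array's 75th percentile was subtracted from its log2 processed intensity. Probes detected on at least 2 arrays were tested, 1 per locus (highest mean), with limma 3.58.1 in R 4.3.3 (lmFit, eBayes, two-sided, Benjamini-Hochberg over 28914 loci, some without an MSU name). Figures used matplotlib 3.10.9. The fit and the rule were tested on simulated data. With 5 arrays an exact permutation test cannot go below 0.1, and the number of arrays limits the precision. P-values rest on the spread between arrays of a group, where accession, array and, in the high-amylose group, scan date cannot be told apart.

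Named loci were the members that passed, the 10 with the largest difference, the 5 brightest, known genes, and the 3 of each kind nearest to the detection line, with loci just outside. Loci named for their gap to scanner error, overlap, neighbours, single bright arrays (LOC_Os04g16804) or second probes were chosen after their values were seen. Members and lists were chosen with earlier results of these data known. Names of known genes are those commonly published for the MSU loci. A RefSeq gene table matched 0 of 48718 locus names, so planned functional classes could not be filled. Normexp used median signals, since mean signals were not in the files. Alternatives covered the rule, scaling, background, filter, scan date and single arrays.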

Additional observations from a re-analysis of the deposited data

How the results depend on the processing

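The count of 38 loci was 49 with any probe of a locus, 31 with every probe and 38 with any spot of a probe (37 shared), and 102 to 157 without single arrays. The more lenient flag of a positive and significant signal gave 212 loci, 3 of them among the 38. The rest of the 38 thus carried that flag on a waxy array. The median log2 difference of 1.94 was 1.84 under quantile scaling, 1.85 in the deposited log2 values and 1.72 to 2.12 without single arrays. It was 0.44 under normexp, whose offset of 50 shrinks dim differences by construction, and 1.42 with the waxy side at its bound. Chosen after seeing the data, it was 1.16 without scaling and 1.40 with high-amylose replicate 1 alone. The 3 limma calls were 0 under quantile scaling, normexp, the deposited log2 values, no scaling and a scan date term, 5 with detection on 3 or more arrays (all 3 shared), 2 with each probe apart, with no filter or with scan date as a random block, and 0 to 9 without single arrays. Over the whole array 6 loci passed higher in high-amylose seed with detection on 3 or more arrays. With each probe apart, no filter and scan date as a random block, 3, 2 and 2 did. Beside the counts of 0, limma at an unadjusted p under 0.05 passed 836, 647, 841, 3507 and 1160 loci of the array in either direction, in the order named, and 852 without high-amylose replicate 3. The 16 named members kept their direction in all 224 alternative values, which the choice of members largely fixes and which is no sign of stability. Wider definitions of a neighbour still gave 0 runs. No paired analysis was possible because the labels give no replicate numbers that pair the groups. Fits without a waxy array take the remaining one to vary like the other group. Dim signal limits the folds of most loci.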

Other observations

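The array also holds 139 loci that carry no LOC_Os name. None of these 139 was detected on all 3 high-amylose arrays and neither waxy array, and 1 had the opposite pattern.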
